A study of Homo sapiens with 4 samples.

Results

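Regions of histone H3 lysine 27 acetylation (H3K27ac) whose centre lay in a long terminal repeat (LTR) element numbered 3713 of 45672 in Kasumi-1 cells. They were found by their annotation, which names the repeat at the centre of each region: a region was a member when that repeat was of the class LTR, and members were described by repeat family and subfamily. Kasumi-1 is a line from acute myeloid leukaemia with the t(8;21) fusion of RUNX1 to RUNX1T1. Cells that had received CRISPR/Cas9 with a guide against SETD8 (sgSETD8, genotype SETD8 knockout, 2 samples) were set against cells with a non-targeting guide (sgNT, genotype WT, 2 samples). SETD8, gene symbol KMT5A, monomethylates histone H4 at lysine 20. H3K27ac is found at enhancers and promoters in use, and it was mapped by CUT&Tag, in which an antibody guides a transposase to the mark, from 100000 cells per library. The labels do not say whether the knockout cells were a clone or a pool, or whether the 2 samples of a group were separate cultures, so differences between tables may be technical. The mark does not measure SETD8 itself. It also cannot tell a copy that is marked in fewer cells from a copy that is less marked in each cell.

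LTRs are the repeated ends of endogenous retroviruses, the remains of retroviral infections of the germ line. They hold the promoter and enhancer sequences of the former virus, and most copies have lost the internal viral genes by recombination between the ends, so that a solitary LTR is left. In human DNA they belong mainly to the families ERV1, ERVL, ERVL-MaLR and ERVK, and in most tissues many copies are kept silent by DNA methylation and by repressive histone marks. A subfamily name that ends in -int stands for the internal part of a provirus between its LTRs.

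Each group had 2 tables of regions, and the tables formed 2 pairs by the names in their region identifiers, called sparse and dense here after their number of regions. The sparse pair held 7276 sgSETD8 and 5186 sgNT regions, and the dense pair held 18061 sgSETD8 and 15149 sgNT regions. The sparse sgSETD8 table stood apart from the other tables before any LTR was considered. Of its regions, 29.3% overlapped a region of either dense table, against 79.0% of the sparse sgNT regions. Simple repeats were at the centre of 7.53% of its regions and of 1.06% of the sparse sgNT regions, while both dense tables were under 0.9% (0.753% in sgSETD8 and 0.819% in sgNT). The first 50 Mb of chromosome 5 held 441 of its regions and 79 sparse sgNT regions, against 225 dense sgSETD8 and 163 dense sgNT regions. Read depth is unknown because the tables hold no counts, so every result below is given for the pairs separately. With 2 tables against 2, an exact two-sided permutation test cannot give a p below 0.333, and a difference between the groups can only be set beside the spread between the pairs.

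Some LTR-centred regions held the start site of an annotated transcript, and those sequences show what kind of element carried the mark. RefSeq gives each gene a promoter window of 250 bases before and 50 after a start (GRCh38.p14), and windows were taken that lay wholly inside a member of a lone peak, close to its centre. Below are ERV3-1, which had an LTR-centred region in all 4 tables, and the windows of LOC124900812 and LOC112268150, each of which held the centre of a member, printed 5′ to 3′ on the strand of the transcript. The element named is the one at the centre of the member. Capitals mark TATAAA on the transcript strand, the core of a TATA box.
ERV3-1, LTR4, chr7:64999393-64999692, minus strand: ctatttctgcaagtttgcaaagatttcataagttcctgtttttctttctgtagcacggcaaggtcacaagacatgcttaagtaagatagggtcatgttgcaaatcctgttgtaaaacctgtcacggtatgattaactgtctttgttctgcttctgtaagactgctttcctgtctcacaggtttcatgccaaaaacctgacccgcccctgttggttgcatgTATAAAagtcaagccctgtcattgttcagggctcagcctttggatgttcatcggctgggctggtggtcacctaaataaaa
LOC124900812, MER61F, chr4:173289433-173289732, minus strand: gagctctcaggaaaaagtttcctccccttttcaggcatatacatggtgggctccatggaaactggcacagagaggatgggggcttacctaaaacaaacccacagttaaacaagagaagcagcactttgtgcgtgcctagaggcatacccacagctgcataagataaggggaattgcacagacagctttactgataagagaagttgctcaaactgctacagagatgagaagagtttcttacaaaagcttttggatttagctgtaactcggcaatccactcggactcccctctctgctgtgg
LOC112268150, MER73, chr15:52100495-52100794, minus strand: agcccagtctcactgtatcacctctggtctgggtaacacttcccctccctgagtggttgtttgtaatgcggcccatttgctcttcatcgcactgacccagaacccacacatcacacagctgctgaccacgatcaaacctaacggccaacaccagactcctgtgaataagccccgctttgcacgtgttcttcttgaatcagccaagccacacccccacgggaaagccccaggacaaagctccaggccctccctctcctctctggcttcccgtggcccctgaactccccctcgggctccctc
The ERV3-1 window held TATAAA at base 221, upstream of the start. None of the 3 windows held TGTGGT, the core of the motif bound by RUNX factors, on either strand. Among the windows that are not printed, that of LINC02573, inside a dense sgNT member centred on MER54B, held TGTGGT at 2 places. Those of LOC107985870, LOC124901783 and LOC124903399 did not hold it. Of 34943 RefSeq promoter windows, 7.35% held TATAAA on the transcript strand and 13.1% held TGTGGT on either strand, so a match or its lack is a description only. Other motifs were searched on both strands as well. The AP-1 motif TGANTCA was in 7.72% of all windows and matched at 1 place in the MER73 window. The ETS core GGAAGT, in 22.8% of all windows, also matched at 1 place there. The GATA motif AGATAA was in 10.4% of all windows and matched at 1 place in the MER61F window. The C/EBP motif TTGCGNAA, in 0.890% of all windows, matched in none of the 3. The MER61F start lay in members of both dense tables, with a density of 1.14 per bp in sgSETD8 and 1.24 in sgNT. The MER73 window lay in a dense sgSETD8 member (1.04 per bp). It also overlapped a region in dense sgNT and in sparse sgNT, but none in sparse sgSETD8.

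LTR elements were at the centre of more regions in sgSETD8 than in sgNT cells in both pairs, and the excess over other regions was large in the sparse pair and small in the dense pair. In the sparse pair 906 sgSETD8 regions were LTR-centred, 12.5% of the table (95% Clopper-Pearson interval 11.7% to 13.2%). The sparse sgNT table had 437, or 8.43% (7.68% to 9.22%). In the dense pair the numbers were 1320 in sgSETD8, or 7.31% (6.93% to 7.70%), and 1050 in sgNT, or 6.93% (6.53% to 7.35%). The share in sgSETD8 minus that in sgNT was thus 4.03 percentage points in the sparse pair and 0.377 points in the dense pair, with a mean of 2.20 ± 2.58 points (SD, n = 2 pairs). The spread between the pairs was larger than the mean difference. The number of LTR-centred regions was 2.07 times as high in sgSETD8 as in sgNT in the sparse pair and 1.26 times as high in the dense pair, while all other regions were 1.34 and 1.19 times as many. The intervals cover counting only, as if regions were independent. The direction in the sparse pair turned in wider regions. Among regions of at least 500 bp, sparse sgSETD8 had 136 members and sparse sgNT 223, and other regions of that width were likewise fewer in sgSETD8 (0.618 times). Among sparse regions that overlap a dense region the log2 ratio of member numbers was -0.99.

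Other repeat classes were set beside them. LINE elements differed by more than LTR elements, by 9.54 points in the sparse pair (19.8% in sgSETD8 and 10.2% in sgNT) and by 0.968 points in the dense pair (13.9% and 12.9%). SINE elements differed by -0.03 and -0.18 points, with 7.64% in sgSETD8 and 7.67% in sgNT in the sparse pair. DNA transposons differed by 0.72 and -0.04 points. Of these 4 classes, LTR and LINE elements had a higher share in sgSETD8 in both pairs, as had the rare satellites (0.440% and 0.096% of the sparse, 0.0055% and 0% of the dense sgSETD8 and sgNT regions). No test of the difference between classes was possible with 2 pairs. The LTR share was higher in sgSETD8 on 16 of 23 chromosomes in the sparse pair and on 11 of 23 in the dense pair. The first 50 Mb of chromosome 5 held 83 sparse sgSETD8 members, 9.16% of that table's members, against 6 sparse sgNT members (1.37%), 32 dense sgSETD8 members (2.42%) and 17 dense sgNT members (1.62%). That stretch also held more sparse sgSETD8 regions of every kind, as given above, and its part in the LTR difference was not tested.

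**Figure D1:**
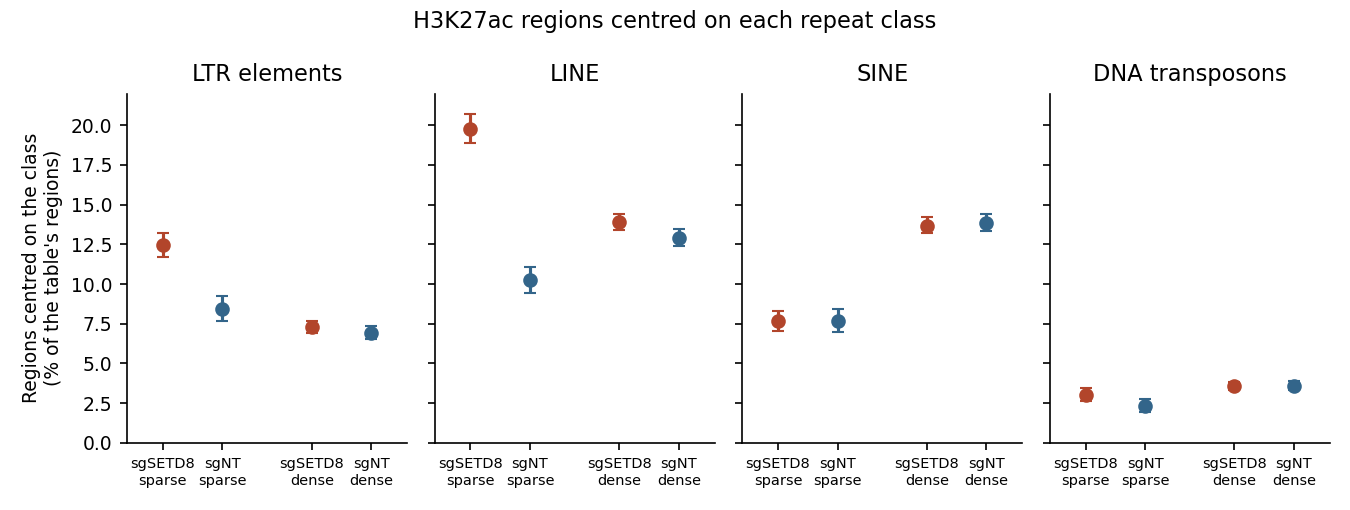
Share of each table's regions whose centre lay in an LTR element, a LINE, a SINE or a DNA transposon (y axis, percent), for the sgSETD8 and sgNT tables of the sparse and the dense pair (x axis). Points are shares and bars are 95% Clopper-Pearson intervals. The sparse sgSETD8 table is highest for LTR elements (12.5%) and for LINE elements (19.8%), and the other tables lie between 6.93% and 8.43% for LTR elements.

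The 4 main families did not differ between the groups alike. ERV1, the gammaretrovirus-like family, supplied 376 sparse sgSETD8 and 149 sparse sgNT regions (41.5% and 34.1% of the members). It supplied 353 dense sgSETD8 and 298 dense sgNT regions (26.7% and 28.4%). ERVL-MaLR, the old non-autonomous relatives of ERVL, supplied 295 sparse sgSETD8 and 155 sparse sgNT regions. It was the most common family of the dense pair, with 527 sgSETD8 and 393 sgNT regions. ERVL had 216 in sgSETD8 and 102 in sgNT (sparse), and 366 and 289 (dense). These 3 families had more sgSETD8 than sgNT regions in both pairs. ERVK, which holds the youngest human endogenous retroviruses, had no such excess. It had 10 regions in sgSETD8 and 22 in sgNT in the sparse pair, and 41 in each table of the dense pair. Gypsy-like elements were rare, with 6 sgSETD8 and 5 sgNT regions (sparse) and 22 and 21 (dense).

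Of 429 subfamilies, some with a large sparse sgSETD8 excess are described first, and they were picked after their counts were seen. LTR12C, the LTR of the HERV9 proviruses, was at the centre of 112 sparse sgSETD8 and 14 sparse sgNT regions, but of 10 and 9 dense regions. MER52A, another ERV1 LTR, had 76 sparse sgSETD8 and 3 sparse sgNT regions, against 14 and 9 dense ones. MER52D had 31 and 6 sparse regions, and 7 and 5 dense regions. All 3 were several times as frequent in sgSETD8 in the sparse pair, and differed by at most 5 regions in the dense pair.

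The internal parts of the MaLR proviruses THE1 and MST showed the same excess in the sparse pair, while the THE1 LTRs did not. THE1B-int had 51 sgSETD8 regions and 0 sgNT regions in the sparse pair, but 5 sgSETD8 and 8 sgNT regions in the dense pair, where the order was turned round. THE1C-int had 22 and 0 sparse regions and 3 and 0 dense regions. MSTA-int had 26 sgSETD8 and 2 sgNT sparse regions, and 10 and 6 dense regions. The THE1 LTRs, by contrast, had 10 sgSETD8 and 17 sgNT regions among the sparse tables, against 41 and 20 among the dense ones. Internal parts of all subfamilies made up 26.6% of the LTR-centred regions in sparse sgSETD8 and 11.4% in sparse sgNT, against 14.9% in dense sgSETD8 and 15.1% in dense sgNT. The sparse sgSETD8 table was the exception among the 4.

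LTR12C, MER52A, MER52D and the internal parts of THE1 and MST together held 355 of the 906 sparse sgSETD8 members (39.2%) and 31 of the 437 sparse sgNT members (7.09%). In the dense pair they held 63 sgSETD8 members (4.77%) and 48 sgNT members (4.57%). The set was put together after its counts were seen. Without it, the remaining LTR-centred regions were 7.57% of the sparse sgSETD8 regions and 7.83% of the sparse sgNT regions, and the share was 6.96% in dense sgSETD8 and 6.61% in dense sgNT. With the set left out of the total as well, the sparse difference was 0.085 points. Since the set was picked for its sparse excess, a smaller difference without it follows from the choice, and nothing is read from it. Of the 355 sparse sgSETD8 regions of the set, 8.17% overlapped a dense region of either group, against 67.7% of the 31 sparse sgNT regions. Over all regions these shares were 29.3% in sparse sgSETD8 and 79.0% in sparse sgNT. The sparse sgSETD8 LTR12C regions lay on 18 chromosomes and had a median width of 317 bp, and 13 of them (11.6%) overlapped a dense region, against 9 of the 14 sparse sgNT regions (64.3%). The set, LTR12C included, was picked for its sparse excess, so nothing is read from these overlaps either.

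**Figure D2:**
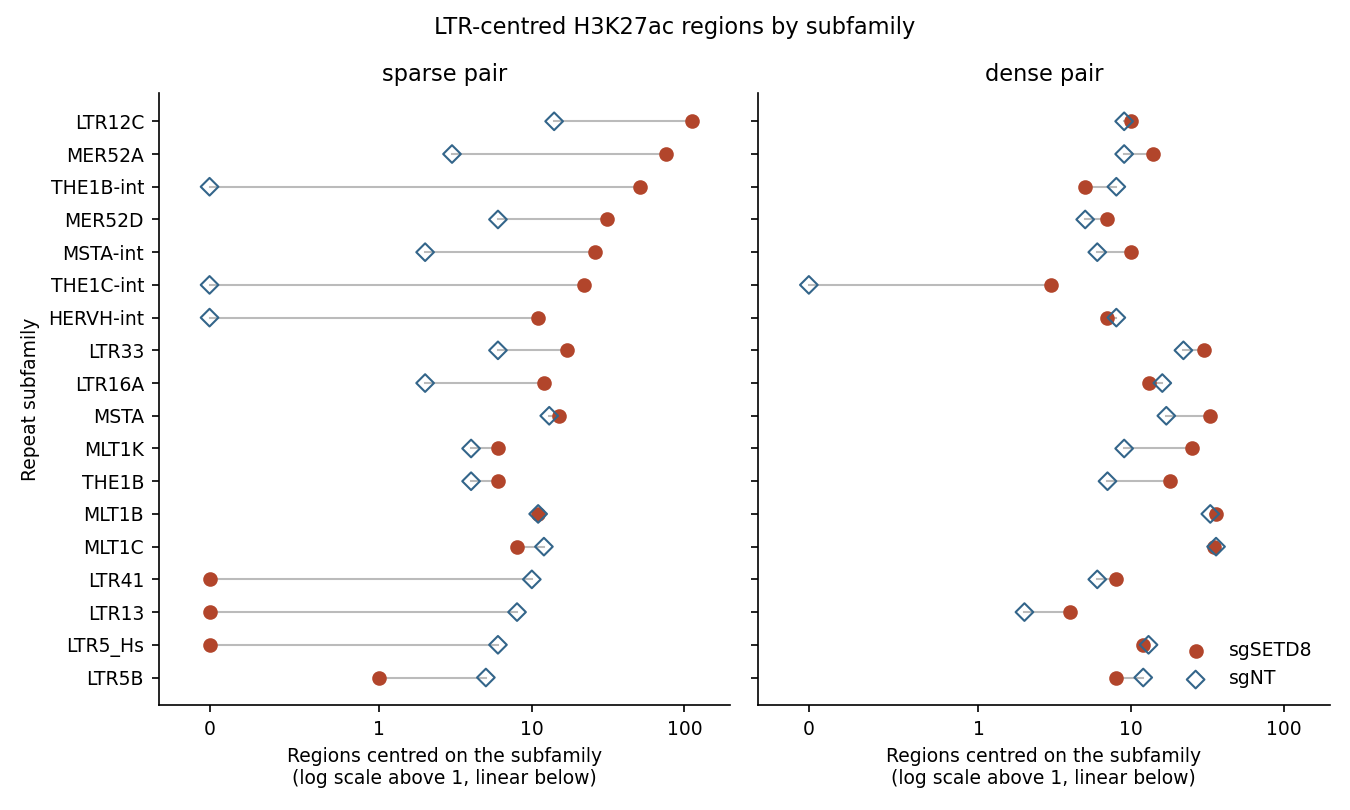
Number of regions centred on each of 18 LTR subfamilies (x axis, log scale above 1 and linear below) in the sparse pair (left) and the dense pair (right). Filled circles are sgSETD8 tables and open diamonds are sgNT tables. LTR12C shows the widest gap in number in the sparse pair, 112 against 14, and lies at 10 and 9 in the dense pair.

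Of the 45 subfamilies with at least 20 regions over the 4 tables, 25 had more sgSETD8 than sgNT regions in both pairs and 6 had fewer in both. A further 4 were higher in the sparse pair and lower in the dense pair, 7 the other way round, and 3 were equal in a pair. All regions together were more numerous in sgSETD8, so a higher number in both pairs is also what the table sizes give. LTR33 had 17 sgSETD8 and 6 sgNT regions (sparse) and 30 and 22 (dense). MLT1K had 6 and 4 (sparse) and 25 and 9 (dense), and LTR16C had 6 and 2 (sparse) and 18 and 9 (dense). Those 3 belong to ERVL and its MaLR relatives and were more numerous in sgSETD8 in both pairs. MSTA, a MaLR LTR, had 15 sgSETD8 and 13 sgNT regions (sparse) and 33 and 17 (dense). MLT1B had 11 in each sparse table and 36 and 33 dense regions, and MLT1C had 8 sgSETD8 and 12 sgNT sparse regions and 35 and 36 dense regions, so these 2 common subfamilies differed by at most 4 regions.

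The ERVK LTRs LTR5_Hs, LTR5B and LTR13, the ERVL element LTR41 and the ERV1 element MER61F were fewer in sgSETD8 in the sparse pair. Rarer ERVK LTRs ran the other way there: LTR22A had 2 sgSETD8 and 0 sgNT regions. LTR22, LTR22B, LTR22C0 and MER11B had 1 and 0 each, while LTR13A had 0 and 1. LTR5_Hs, the LTR of the youngest HERV-K proviruses, had 0 sgSETD8 and 6 sgNT regions (sparse) and 12 and 13 (dense). LTR5B had 1 and 5 (sparse) and 8 and 12 (dense), and was lower in sgSETD8 in both pairs. LTR13 had 0 and 8 (sparse) and 4 and 2 (dense). LTR41, an ERVL LTR, had 0 sgSETD8 and 10 sgNT regions (sparse) and 8 and 6 (dense), and MER61F had 0 and 6 (sparse) and 3 and 4 (dense). LTR13 and LTR41 therefore ran in opposite directions in the 2 pairs. A list of 14 LTR2, LTR5, LTR12 and LTR13 subfamilies tied to myeloid leukaemia or haematopoietic factors held 122 sgSETD8 members (13.5%) and 39 sgNT members (8.92%) in the sparse pair, of which LTR12C gave 112 and 14. In the dense pair the list held 51 sgSETD8 members (3.86%) and 54 sgNT members (5.14%). A list of 4 LTR7 names tied to pluripotent cells was small, with 1 member in sparse sgSETD8 and 0 in sparse sgNT, and 3 in dense sgSETD8 and 2 in dense sgNT. A list of 11 MaLR LTRs (THE1, MSTA, MSTB and MLT1A to MLT1D) held 58 sgSETD8 members (6.40%) and 62 sgNT members (14.2%) in the sparse pair. It held 207 (15.7%) and 152 (14.5%) in the dense pair.

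Examples of these subfamilies were taken by best rank in signal, so they need not be typical of the counts. The sparse sgSETD8 LTR12C regions, for instance, had a median width of 317 bp. Among the sparse sgSETD8 LTR12C regions the best-ranked after the one shared with sparse sgNT near KIT were on chromosome 11 near OR4B1 (12556 bp, 0.173 per bp, rank 489) and on chromosome 6 near MIR4645 (334 bp, 2.72 per bp, rank 1083). Neither had a counterpart. An LTR12C copy near CLECL1, a C-type lectin-like gene of lymphocytes, was present in both dense tables with 0.953 per bp in sgSETD8 and 1.35 in sgNT. Its density was lower in dense sgSETD8, as was the median density of that table. Of MER52D, a copy near TBC1D4 had 1.07 per bp in both dense tables and 1.06 in sparse sgNT. The MSTA-int copy near NEDD4, a ubiquitin ligase, had 1.33 per bp in dense sgSETD8 and 1.60 in dense sgNT, and 4.12 in sparse sgNT. The internal MST copy was thus marked in both dense groups. LTR5_Hs copies of the dense pair included those near MINDY2 (1.24 per bp in sgSETD8 and 1.58 in sgNT) and YPEL2 (1.06 and 1.63). The LTR13 copy near PVRIG2P had 1.07 and 1.12 per bp in dense sgSETD8 and sgNT, and an LTR41 copy near MCUB, a subunit that restrains the mitochondrial calcium channel, had 1.16 and 1.15. The LTR33 copy near LRP12 had 1.51 in dense sgSETD8 and 1.66 in dense sgNT. These values stand against table medians of 0.589 per bp in dense sgSETD8 and 0.756 in dense sgNT. Copies of LTR5_Hs, LTR13 and LTR41 were thus present in both dense groups.

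LTR-centred regions were short, especially in the sparse sgSETD8 table. Their median width was 312 bp in sparse sgSETD8 and 503 bp in sparse sgNT cells, and 846 bp in dense sgSETD8 and 880 bp in dense sgNT cells. Other intronic or intergenic regions, taken as the comparison since no member was annotated elsewhere, had median widths of 346, 514, 1597 and 1637 bp in the same order. The members were narrower in all 4 tables, and in the dense tables by a factor of 0.530 and 0.537. Among regions of a lone peak the gap was smaller, and members were narrower in 3 of 4 tables. Their medians there were 306 bp in sparse sgSETD8 and 480.5 bp in sparse sgNT, against 329 and 458 bp in all other lone peaks. In dense sgSETD8 and sgNT they were 594 and 573 bp, against 667 and 626 bp. Members were also narrower than LINE-centred regions of any peak number in 3 of 4 tables only. Each table had a shortest width, between 274 and 340 bp, that many regions shared in the sparse pair. In sparse sgSETD8 38.0% of the members had exactly that width, against 12.1% in sparse sgNT, 0.379% in dense sgSETD8 and 0.190% in dense sgNT. With those shortest regions left out, the LTR share was 11.0% in sparse sgSETD8 and 8.31% in sparse sgNT. At widths of 500 bp or more it was 8.28% in sparse sgSETD8 and 8.39% in sparse sgNT, so the sparse difference was not seen in the wider regions. In the dense pair the share at these widths was 6.63% in sgSETD8 and 6.43% in sgNT.

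**Figure D3:**
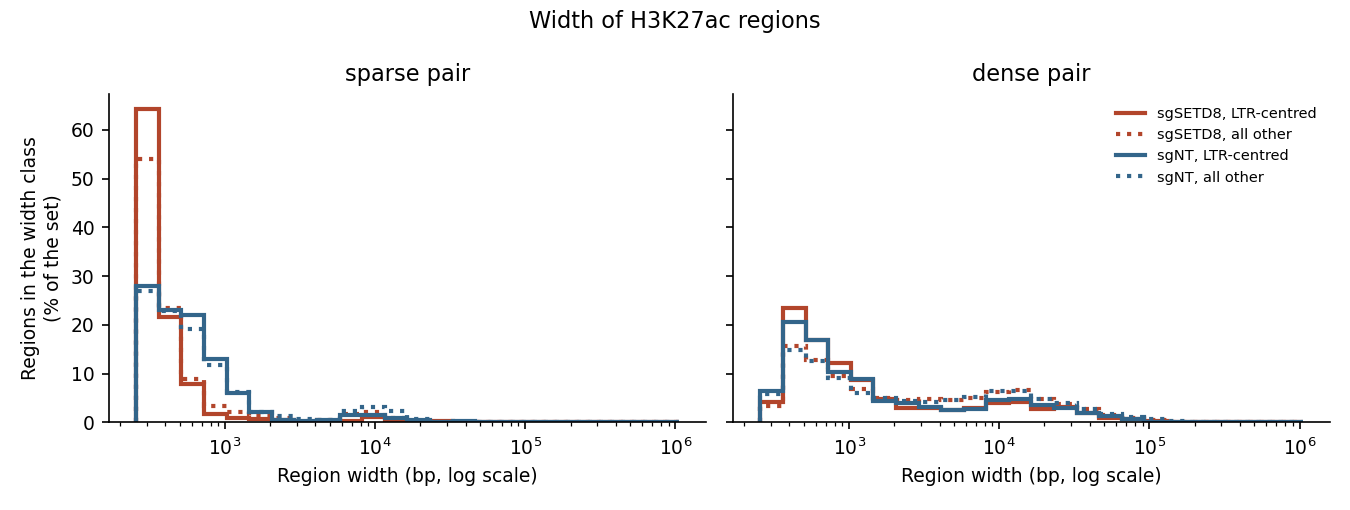
Width of regions (x axis, bp, log scale) as the percent of each set in a width class (y axis) for the sparse pair (left) and the dense pair (right). Solid lines are LTR-centred regions and dotted lines all other regions, in sgSETD8 (red) and sgNT (blue) tables. The sparse sgSETD8 members pile up in the narrowest class, where their median of 312 bp lies.

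In rank and position the members differed from other intronic or intergenic regions in the same way in all 4 tables. A region made of a lone peak was a member's usual form, in 95.7% of sparse sgSETD8, 92.9% of sparse sgNT, 72.4% of dense sgSETD8 and 69.2% of dense sgNT members. The share among the compared regions was 90.7%, 86.2%, 58.4% and 56.7%. Members were less often among the best-ranked 10% of a table by signal, with 4.64% in sparse sgSETD8, 6.18% in sparse sgNT, 6.44% in dense sgSETD8 and 5.90% in dense sgNT, against 10.4% to 10.5% of the compared regions. They were more often intergenic, in 63.1% and 56.3% of the sparse sgSETD8 and sgNT members and in 41.9% and 41.7% of the dense ones, where the compared regions had 47.8%, 38.2%, 26.1% and 25.2%. The median distance to the nearest transcription start was 48.4 kb in sparse sgSETD8 and 27.5 kb in sparse sgNT members, and 28.6 kb and 24.2 kb in dense members. It was longer than in the compared regions in all 4 tables, by 1.12 to 1.38 times. LINE-centred regions lay farther away than the members in both sparse tables and nearer in both dense tables, with 50.8 kb in sparse sgSETD8 and 34.6 kb in sparse sgNT, and 27.7 kb and 22.8 kb in dense sgSETD8 and sgNT. The exact sign-flip test over 4 tables gave p = 0.125 for each of these properties, the smallest it can give. Signal density had no common direction, with members lower in both sparse tables (0.724 against 0.818 per bp in sgSETD8, and 1.28 against 1.50 in sgNT) and slightly higher in both dense tables (0.606 against 0.584, and 0.771 against 0.750).

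Members had an overlapping region in the other group of the same pair less often than other regions did. In sparse sgSETD8 825 of 906 members (91.1%) had none in sparse sgNT, where 85.1% of all sparse sgSETD8 regions had none. In sparse sgNT it was 357 of 437 (81.7%), against 79.1% of all regions. In dense sgSETD8 it was 558 of 1320 (42.3%), against 34.0%, and in dense sgNT 251 of 1050 (23.9%), against 22.7%. The members' shares lay near those of all regions in the sgNT tables and above them in the sgSETD8 tables. The difference from all other regions was 6.79 and 2.79 points in sparse sgSETD8 and sgNT, and 8.91 and 1.27 points in dense sgSETD8 and sgNT, with a mean of 4.94 ± 3.52 points (SD, n = 4 tables). It was positive in 4 of 4 tables, and the exact two-sided sign-flip test gave p = 0.125, the smallest possible with 4 tables. But the 2 tables of a pair were each other's reference, so the 4 values are not independent, as the test and the SD take them to be. Within regions of a lone peak the differences were 4.78 and 0.71 points in sparse sgSETD8 and sgNT, and 6.43 and -2.39 points in dense sgSETD8 and sgNT, so the direction did not hold in dense sgNT (3 of 4 tables, exact sign-flip p = 0.375). Among the best-ranked 5000 regions both dense tables turned, with -1.20 points in sgSETD8 and -0.74 in sgNT. LINE-centred regions lacked a counterpart in 91.0% of cases in sparse sgSETD8, about as often as the members, and in 74.4% in sparse sgNT, 36.5% in dense sgSETD8 and 20.3% in dense sgNT. Simple repeats lacked one in 94.3% in sparse sgSETD8.

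Among the families, the dense sgSETD8 share with no counterpart was 39.1% for ERV1, 41.4% for ERVL-MaLR, 47.5% for ERVL and 31.7% for ERVK, and in dense sgNT it was 23.5%, 20.9%, 28.0% and 19.5%. Among these 4 families ERVL was highest and ERVK lowest in both dense tables. The few Gypsy-like members had 11 of 22 (50.0%) in dense sgSETD8 and 9 of 21 (42.9%) in dense sgNT. A counterpart need not be centred on the same element, since stitched regions shift their centre. Of the members with a counterpart, 34 of 81 in sparse sgSETD8 and 34 of 80 in sparse sgNT had a counterpart centred on the same subfamily, as had 262 of 762 in dense sgSETD8 (34.4%) and 261 of 799 in dense sgNT (32.7%). Overlap with the other pair was 18.1% for members of sparse sgSETD8 and 74.4% for sparse sgNT, and 22.9% and 25.1% for dense sgSETD8 and sgNT. Over all regions the figures were 29.3%, 79.0%, 23.0% and 25.6%.

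**Figure D4:**
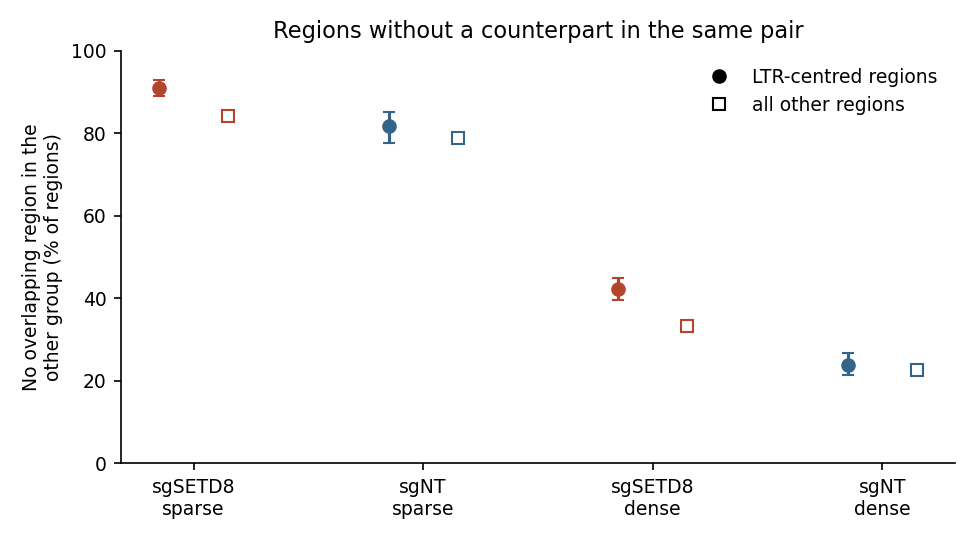
Percent of regions with no overlapping region in the other group of the same pair (y axis), for LTR-centred regions (filled circles) and all other regions (open squares) of the 4 tables (x axis). Bars are 95% Clopper-Pearson intervals. Members lie above other regions in every table, by 8.91 points in dense sgSETD8 and by 1.27 points in dense sgNT.

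When members of the 4 tables that overlap were joined into loci, 3140 loci resulted. Of these 2672 had a member in 1 table, 378 in 2, 78 in 3 and 12 in all 4. The 12 loci were assigned to TRIM24 (SVOPL in the sparse tables), GSN (RAB14 in 3 tables), LOC613266, PDK1, ERV3-1, ZNF321P, ANK2, EPS8, GPC5-AS2, C18orf54, LINC01683 and HOMER1 in the deposited annotation. The 12 were 0.382% of the LTR loci, and 85.1% of the LTR loci were in 1 table. When regions of every other kind were joined in the same way, 4.00% of 24462 loci were in all 4 tables and 57.5% in 1. A region of any other kind need not share an element with those it is joined to, and these shares were not tested against each other.

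The ERV3-1 locus on chromosome 7 had the highest signal density of the 12 in the sparse tables. ERV3-1 is the envelope gene of the ERV3 provirus, and its RefSeq gene spans 64990356 to 65006687 on the minus strand. The sparse sgSETD8 region ran from 64998624 to 64999489 with a density of 6.79 per bp and rank 184. The sparse sgNT region ran from 64998553 to 65000162 with 6.70 per bp and rank 225. Those values were 8.38 and 4.49 times the median density of their tables. The dense regions were at 64998628 to 65000193 with 1.10 per bp in sgSETD8 (1.87 times the table's median) and at 64997682 to 65000188 with 0.808 per bp in sgNT (1.07 times). All 4 regions lay in the intron of ERV3-1 and were centred on LTR4 or on the internal sequence HERV3-int, and they reached over the start site whose window is printed above. A second RefSeq start, with its window at 65006638 to 65006937, lay outside all of them.

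**Figure D5:**
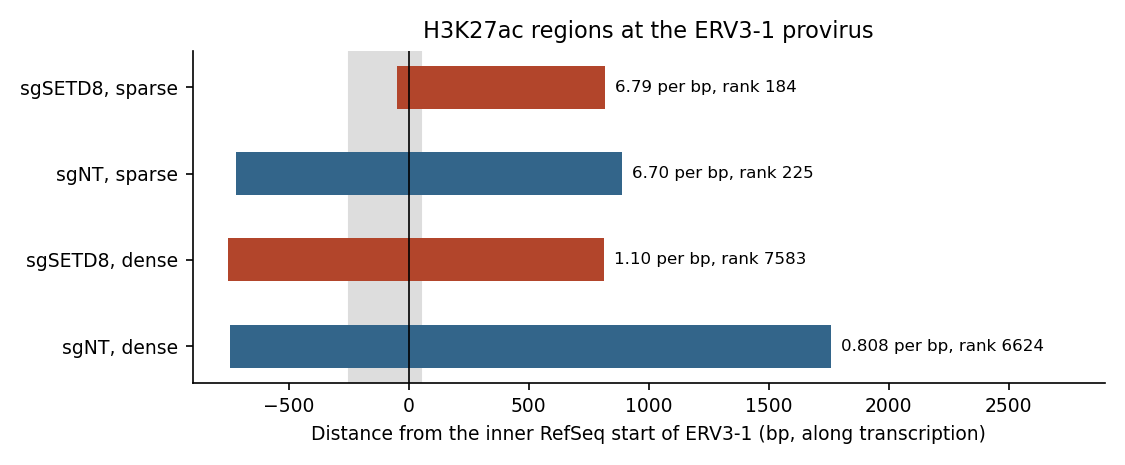
Extent of the H3K27ac region at the ERV3-1 provirus in each of the 4 tables (bars), as distance in bp from the inner RefSeq start along the direction of transcription (x axis). The grey band is the RefSeq promoter window and the labels give the authors' signal density per bp and the region's rank in its table. All 4 bars cross the start, and the density is 6.79 and 6.70 per bp in the sparse tables.

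The other loci found in all 4 tables had lower densities than ERV3-1 in the sparse tables, and several had higher ones in the dense tables. The one in an intron of TRIM24, a bromodomain protein that reads histone marks, was centred on HERV3-int in 3 tables and on LTR32 in dense sgSETD8. It had densities of 2.22 per bp in sparse sgSETD8 and 2.57 in sparse sgNT, and 0.570 and 1.23 in dense sgSETD8 and sgNT. At ZNF321P, on chromosome 19 at 52936226 to 52937243 in sparse sgSETD8, an LTR5B copy had 1.94 per bp in sparse sgSETD8 and 3.69 in sparse sgNT, and 1.06 and 1.78 in dense sgSETD8 and sgNT. At ANK2, which encodes an ankyrin that anchors membrane proteins, a MER90a copy had 1.22 and 2.71 per bp (sparse) and 1.53 and 2.06 (dense). These 3, like some other loci found in all 4 tables, were lower in sgSETD8 in both pairs. But tables differ in their overall density, with medians of 0.810 per bp in sgSETD8 and 1.49 in sgNT (sparse) and 0.589 and 0.756 (dense). The dense TRIM24 regions also differed in width, at 24248 bp in sgSETD8 and 12155 bp in sgNT. The scale of the signal is not stated, so no test was made. The MLT1G3 copy at EPS8, whose product links receptors to actin, was higher in sgSETD8 in the sparse pair (0.732 against 0.598) and lower in the dense pair (1.28 against 1.31). An MSTA copy near HOMER1 had 1.94 and 0.867 per bp in sparse sgSETD8 and sgNT, and 0.499 and 0.654 in the dense tables. Near PDK1, a kinase that restrains pyruvate dehydrogenase, an LTR22B region of sparse sgSETD8 had 1.41 per bp and a HERVK22-int region of sparse sgNT had 2.32. These sparse regions lay next to each other on chromosome 2 without overlap (172513314 to 172513659 and 172513674 to 172514789), so their densities belong to different places. A longer dense sgSETD8 region joined them. The HERVK22-int regions of dense sgSETD8 and sgNT had 0.618 and 0.867.

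Loci that were LTR-centred in both tables of a group and in neither of the other group were 20 for sgSETD8 and 37 for sgNT. Most still had a region of the other group with another centre, and 8 of the 20 and 6 of the 37 had none. Loci of other regions were not counted in this way, so these numbers are not read as many or few. An MLT1L copy near IFNGR1, the ligand-binding chain of the interferon gamma receptor, was the centre at 137223521 to 137224773 on chromosome 6 in sparse sgSETD8 (2.13 per bp) and of a longer region in dense sgSETD8 (0.811 per bp). The dense sgNT table also had a region there, with another centre. On the sgNT side a MER89 copy near PDHX, a component of the pyruvate dehydrogenase complex, had 15.8 per bp in sparse sgNT (chromosome 11, 34809079 to 34810550, rank 59) and 1.50 in dense sgNT. Both sgSETD8 tables had a region at this place whose centre was not in an LTR.

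Where an sgSETD8 and an sgNT region covered each other by at least 90%, density could be compared without a shift of the centre. The dense pair had 61 such LTR-centred regions. Their median log2 ratio of density, sgSETD8 over sgNT, was -0.24, against -0.27 for the 1648 other matched regions, a difference of 0.03 with an SD of 0.27 among the 61. Of the 61, 33 lay above and 28 below the median of the other regions, and 6 lay more than 0.5 away from it on the log2 scale (9.84%), where 4.64% of all matched dense regions did. The difference in the median was smaller than the spread among the 61. In the sparse pair 1 region could be matched, an MLT1J copy near GNPDA1 with 2.52 per bp in sgSETD8 and 5.24 in sgNT, and 61.4% of the 44 matched sparse regions lay more than 0.5 from their median.

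Of the 21 matched dense members among the best-ranked 5000 of both tables, a region of 155697 bp over SEMA4D on chromosome 9, centred on MLT1C, was the lowest relative to the other regions. SEMA4D is a semaphorin of leukocytes. Its region had 0.899 per bp in sgSETD8 (rank 24) and 1.53 in sgNT (rank 14), a log2 ratio 0.50 below the median. The next lowest were an MLT1C region at SUZ12P1 with 0.320 and 0.476 per bp, and an ERVL-E-int region in PDS5A, a regulator of cohesin, with 0.852 and 1.23. At the other end a HERVP71A-int region near HCG9 had 0.584 and 0.565 per bp, and an MLT2D region near LINC02265 had 0.641 and 0.630. The MLT1B-centred region downstream of KIT, the receptor for stem cell factor, had 1.99 per bp in sgSETD8 and 2.06 in sgNT, 0.22 above the median on the log2 scale. The members at both ends were long stitched regions in which the named element is only the centre.

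Most of the best-ranked members of each table were also stitched from several peaks, with single-peak exceptions in the sparse tables. In sparse sgSETD8 the leading member was a region of 29531 bp and 5 peaks near RBPJ, the DNA-binding factor of Notch signalling, centred on MLT1F (rank 5, 1.73 per bp). It was followed by an MLT1A0 region at TDRP (rank 27) and a MER39B region near RNU2-1 (rank 55). In sparse sgNT the leading members were an MLT1D region near PRDM8 (rank 31) and the MER89 copy near PDHX. In dense sgSETD8 the SEMA4D region came before an MLT1G1 region at RAB6B (rank 61) and a MER21B region near CHIC2 (rank 83, 39022 bp and 2.16 per bp), and in dense sgNT an MSTA region at PELI2 ranked 154. All 10 best-ranked members of each dense table had a counterpart in the other group. Among members without a counterpart the best-ranked was a MER21B region near FOXO3, a forkhead factor, in sparse sgSETD8 (rank 97, 0.832 per bp), an MLT1I region at RGS9 in sparse sgNT (rank 138), an MLT2C2 region near AKAP13 in dense sgSETD8 (rank 2088) and a MER21C region near RASGEF1A in dense sgNT (rank 2008). In the dense pair, then, no member without a counterpart ranked better than 2008. Other regions of like rank were not counted in this way, so it is not read as a trait of the members. Among the best-ranked 5000 dense regions, the share without a counterpart in members minus that in other regions was -1.20 points in sgSETD8 and -0.74 in sgNT.

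By nearest gene, members were assigned to 789 genes in sparse sgSETD8 and 418 in sparse sgNT, of which 78 were in both, 9.89% of the sgSETD8 genes and 18.7% of the sgNT genes. In the dense pair they were assigned to 1161 and 945 genes, 373 of them in both (32.1% and 39.5%). Over the genes of all other regions the shares in both were 34.3% of the sgSETD8 and 44.2% of the sgNT genes in the sparse tables, and 75.4% and 83.9% in the dense tables. Those gene sets are several times larger, and the difference was not tested. Of 2532 genes in any table, 25 were in all 4. MIR548T had the most members (0 and 1 in sparse sgSETD8 and sgNT, 5 and 7 in dense sgSETD8 and sgNT). MLLT10, a gene rearranged in leukaemias, had 1 in each sparse table and 4 in each dense table, and LINC02211 had 8, all in sparse sgSETD8.

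Members were looked up for 4 lists of genes. Of 26 regulators of t(8;21) leukaemia and blood stem cells, 1 had such a region in sparse sgSETD8 and 3 in sparse sgNT, and 4 had them in dense sgSETD8 and 6 in dense sgNT. Most of the list had some H3K27ac region, with 15 and 14 genes in sparse sgSETD8 and sgNT and 23 in each dense table. The sparse sgSETD8 member was an LTR12C copy of 392 bp assigned to RUNX1T1 with 0.785 per bp. In sparse sgNT they included an LTR104_Mam copy in UBASH3B, a phosphatase gene and known target of the fusion (5.13 per bp), and an LTR12C copy assigned to KIT (1.69 per bp). The KIT copy on chromosome 4 (54632690 to 54633048) lay inside a sparse sgSETD8 LTR12C region that was assigned to LINC02260 instead (54631535 to 54633179, 2.20 per bp), so this copy was marked in both sparse tables under different gene names. CD34, the surface marker of stem and progenitor cells, had the same 2 copies in both dense tables: LTR2 with 0.980 per bp in sgSETD8 and 1.95 in sgNT, and LTR102_Mam with 0.744 and 0.747. RUNX1 had an MLT1J2 region of 1.26 per bp in dense sgSETD8, and MLT1A and LTR16D regions of 0.905 and 1.16 per bp in dense sgNT, all in the same intron at different places. Each of these RUNX1 regions overlapped a region of the other dense table, so none of these places was marked in 1 dense group only.

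Genes that silence endogenous retroviruses and genes that sense their nucleic acids were looked up in the same way. Of 24 silencers, 5 and 3 had any region in sparse sgSETD8 and sgNT, and 11 and 13 in dense sgSETD8 and sgNT. Of 31 sensors and interferon response genes, 3 had any region in each sparse table, and 9 and 6 in dense sgSETD8 and sgNT. Over all genes with a region, 15.0% had an LTR-centred one in sparse sgSETD8 and 10.4% in sparse sgNT, and 12.1% and 11.0% in dense sgSETD8 and sgNT, so counts of 0 or 1 gene a table are not read as few or many. Among the silencers, ATF7IP, a partner of the methyltransferase SETDB1, had an HERVH-int region in sparse sgSETD8 (0.466 per bp), TASOR, a scaffold of the HUSH complex, had an MSTB region in dense sgSETD8 (0.542), and MPHOSPH8, the HUSH reader, had a THE1D region in dense sgNT (0.768). Among the sensors, MAVS, an adaptor of RNA sensing, had an LTR84b region in dense sgSETD8 (0.433), and ZBP1, a sensor of Z-form nucleic acids, an LTR12C region in dense sgNT (0.758). Of 26 genes described with LTR promoters or enhancers, IRF5, an interferon regulatory factor, had an LTR16A1 region in dense sgSETD8 (0.859) and GBP5 an LTR16C region in dense sgNT (0.574). No list had more than 1 such gene in a table, apart from the regulators. The MPHOSPH8, ZBP1 and IRF5 regions each overlapped a region of the other dense table, so these places were not marked in 1 dense group only. The ATF7IP, TASOR, MAVS and GBP5 regions had no counterpart. ATF7IP ranked 5390 of 7276 in sparse sgSETD8, and TASOR and MAVS ranked 14829 and 17767 of 18061 in dense sgSETD8. GBP5 ranked 15026 of 15149 in dense sgNT.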

How the data were processed

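The values came from 4 tables of enhancer regions called from H3K27ac CUT&Tag of Kasumi-1 cells, with 2 tables a group. Trimming was by cutadapt and alignment to hg38 by Bowtie2, per the submitters' processing notes. Peak calling, stitching and annotation tools: not given in the sources used here. Each region carries a signal, which the authors deposited as a density with 4 decimals times the length, and its scaling is not stated. No counts are given, so depth is unknown. The titles name H3K27ac and the series text H3K27me1.

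Groups were read from the guide named in the region identifiers. For the sparse sgNT table these name Kasumi-1 and no guide. No table could be tied to a particular sample. Density was the signal divided by length, and ranks were by signal within a table. A counterpart overlapped by at least 1 bp, and matched regions covered each other by at least 90%. Shares have exact 95% Clopper-Pearson intervals, and differences over 4 tables an exact two-sided sign-flip test. Overlap, matching and the sign-flip test were tested on simulated data.

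Examples are from the 10 best-ranked members of a table, the 5 best-ranked without a counterpart, the best-ranked of named subfamilies, loci shared by tables, the 10 highest and lowest matched members and members at genes of the lists. Promoter sequences are from RefSeq (GRCh38.p14). Motifs in the regions themselves were not searched, since no genome was used. The members and lists were chosen with earlier results of these data known. The result of 1 list of subfamilies is not reported here. The tools were Python 3.11.15 with numpy 2.4.6, pandas 2.3.3, scipy 1.17.1 and, for the plots, matplotlib 3.10.9. Alternatives changed the rank, width, peak number, merging within 12500 bp, annotation, overlap rule, repeat class and pair.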

Additional observations from a re-analysis of the deposited data

How the results depend on the processing

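The mean difference in LTR share stayed positive under all 14 alternatives, from 0.047 points (regions of at least 500 bp) to 4.03 points. The 14 are not separate checks. The alternative named for all sequences used the same regions as the main setting, here and for the results below, so its values could not differ. Leaving out a pair gives back the value of the other pair. Its sparse component turned negative in 2 of them, at -0.10 points for regions of at least 500 bp and at -0.24 points for sparse regions that overlap a dense region. Alternatives chosen after seeing the data, regions longer than the shortest width and members without LTR12C, MER52A, MER52D and the internal parts of THE1 and MST, gave 1.52 and 0.217 points. Leaving out a pair gave 0.377 to 4.03 points for the share and 0.33 to 1.05 for the log2 ratio of member numbers, whose main value was 0.69. That ratio moved to 0.13 for the best-ranked 5000 regions, to -0.19 for regions of at least 500 bp and to -0.33 when sparse regions had to overlap a dense region. In the last 2, fewer members remained in sparse sgSETD8 than in sparse sgNT (log2 ratios of -0.71 and -0.99), and the cause was not tested.

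The counterpart difference stayed positive in the mean, from 0.502 to 5.24 points with exact sign-flip p between 0.125 and 0.75. That test takes the tables as independent, which the 2 tables of a pair are not. Both dense tables turned negative among the best-ranked 5000 (-1.20 in sgSETD8 and -0.74 in sgNT) and in the better-ranked part of each table (-2.91 and -2.50). Dense sgNT alone turned negative when at least 50% had to be covered (-0.78). Leaving out a pair gave 4.79 to 5.09 points. The density difference at matched dense members lay between -0.04 and 0.05 on the log2 scale under the other alternatives, and without the dense pair it rested on 1 region at -0.63. No paired analysis by replicate number was possible because the labels give none. The pairs used here follow the names in the region identifiers, and their differences are given pair by pair.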
